A study of Mus musculus with 4 samples.

Results

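The RNA of 50 mouse genes of mitosis was followed in proliferating iMOP cells and in neurons derived from them. The genes were taken from a list of mitotic kinases and cyclins, spindle checkpoint and anaphase genes, kinetochore and centromere genes, condensin and other chromosome genes, spindle factors, cytokinesis genes and 2 transcription factors. Kinesin motors were left out of the list, apart from Cenpe, which encodes a kinesin of the kinetochore. All 50 genes were found among the 49997 gene rows of the count tables. iMOP cells are an immortalized line of wild-type mouse otic progenitors, the cells that give rise to the inner ear, and every library came from this line. The study compared expression between 2 states, with 2 libraries of each, numbered 1 and 2. The proliferating cells were kept in DMEM/F12 with the N21 supplement, carbenicillin at 25 µg/ml and the growth factor bFGF at 20 ng/ml. The derived neurons were kept in Neurobasal medium with N21, L-glutamine at 2 mM and K03861 at 1 µM, which inhibits CDK2, a kinase of the cell cycle, and no bFGF is named for them. The labels give no time in culture and do not say that the 2 libraries of a state came from separate cultures, so p-values measure only the spread between these libraries.

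In mitosis, cyclin B with CDK1 starts the condensation of chromosomes, which condensin and topoisomerase II carry out. The kinetochore, a protein assembly on each centromere, binds spindle microtubules, and unattached kinetochores keep the checkpoint proteins BUB1, BUB1B, BUB3, MAD2 and TTK active until CDC20 and the anaphase-promoting complex (APC/C) can act. Most of these genes are transcribed in the G2 and M phases under MuvB complexes with B-MYB and FOXM1, and their RNA is low in cells that have left the cycle, such as neurons.

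The mitosis genes took a larger share of the RNA in the libraries labelled neuron than in those labelled proliferating, in both library numbers. Together the 50 genes had 345 counts in proliferating 1 and 1462 in proliferating 2, against 21013 in neuron 1 and 6038 in neuron 2. Shares were taken after 7 genes treated here as ribosomal RNA (rRNA-like) were set aside. The 50 genes were 0.118% of what was left in proliferating 1, with a 95% Wilson interval of 0.106 to 0.131. They were 0.238% in proliferating 2, with an interval of 0.226 to 0.250. The shares were 0.648% in neuron 1, with an interval of 0.640 to 0.657, and 0.977% in neuron 2, with an interval of 0.953 to 1.002. The lowest neuron library thus lay above the highest proliferating library, and the mean share was 4.57-fold higher, at 0.813% ± 0.233 against 0.178% ± 0.0848 (SD, n = 2 each). The ratio was 5.49 within the libraries numbered 1 and 4.11 within those numbered 2. An exact two-sided permutation test over libraries gave p = 0.333, the smallest that 2 against 2 can give. With 1 library left out the mean share was 3.42-fold higher without proliferating 1 and 6.89-fold without proliferating 2. It was 5.49-fold higher without neuron 1 and 3.64-fold without neuron 2. In bulk RNA, fewer dividing cells and less of these RNAs per cell cannot be told apart.

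Depth limited single genes far more than the sum. Total counts ranged from 3150354 to 32913243 per library, of which the 7 rRNA-like genes took 88.2% to 98.1%. The counts that remained were 292302 in proliferating 1, 614465 in proliferating 2, 3241915 in neuron 1 and 617872 in neuron 2, and CPM below are scaled to these. A gene among the 50 had a median of 5 counts in proliferating 1 and 21 in proliferating 2, where the highest had 30 and 109. The medians were 310 and 55.5 in neuron 1 and neuron 2, where the highest had 2357 and 791. In proliferating 1, 40 of the 50 genes had under 10 counts and 3 had none, where a count of 0 allows up to 10.3 CPM. The libraries also differed by number. The small RNAs Rn7sk, Rpph1 and Rmrp took 4.78% and 2.37% of non-rRNA counts in proliferating 1 and neuron 1, against 0.405% and 0.352% in the pair numbered 2, while mitochondrial mRNA took 2.35% and 2.53%, against 10.6% and 14.6%. Neuron markers did not follow the labels, since 12 of them summed to 0.262% and 0.255% in the proliferating libraries and to 0.171% and 0.119% in the neuron libraries. Of those 12, 3 were at 0 in proliferating 1, 3 in neuron 2 and 0 in the other libraries. The sum of the 7 progenitor markers did follow the labels, at 0.351% and 0.852% in the proliferating and 0.251% and 0.181% in the neuron libraries. In each library 1 or 2 of these were at 0. The 7 glial markers made up 0.0783% and 0.0386%, then 0.0250% and 0.0303%, with 1 to 3 at 0. The hair cell, immune and mesenchyme markers, 5 genes each, summed to at most 0.00312% in any library, with 2 to 4, 1 to 5 and 2 to 4 of them at 0. Whether the state labels had been exchanged was not tested, and an exchange would turn the direction of every difference between states given here. The part of these other cell types, of depth and of library number in the results was not tested.

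**Figure D1:**
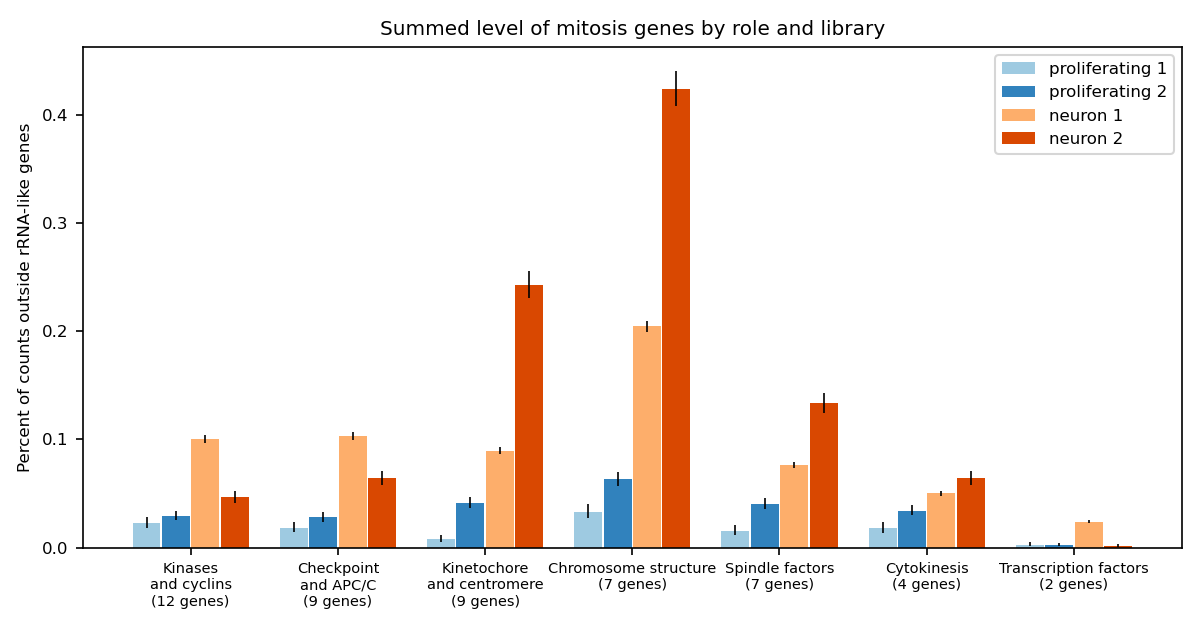
Summed level of the mitosis genes in 7 groups by role, as the percent of counts outside rRNA-like genes, 1 bar per library with 95% Wilson intervals. Chromosome structure genes reached 0.424% in neuron 2, while the transcription factors were higher in neuron 1 (0.0240%) alone.

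No single gene passed a test of the groups alone, and 12 of the mitosis genes passed once the library number was in the model. With group alone, edgeR's quasi-likelihood test called 0 of 46 tested mitosis genes, and 0% of all 9009 tested genes in each direction. Unadjusted p-values under 0.05 were found for 10 of the 46 and for 97 of the 9009, and DESeq2 called 0 genes, with 190 at an unadjusted p under 0.05. Cdc25c, Pttg1, Spc24 and Mybl2 had too few counts to be tested. With library number as a term, edgeR called 12 of the 46 higher in the libraries labelled neuron and 0 lower, where 0.644% of all tested genes were called higher and 0.322% lower. The 12 called genes, said below to have risen, were Bub1, Mad2l1, Ttk, Cenpe, Cenpf, Knl1, Top2a, Mki67, Ncapg, Smc2, Aspm and Hmmr. Log2 fold changes, SEs and adjusted p-values of single genes below are from this fit unless another is named. Group alone was the first choice of fit, and library number as a term was its alternative. The fit with library number had 1 residual degree of freedom, and the labels do not say that a number marks a shared culture. With group alone the smallest adjusted p of any gene was 0.9996 in edgeR. The median log2 fold change, neuron over proliferating, of the 46 was 1.94 with group alone and 2.00 with library number, against -0.03 over all tested genes in each fit. A gene could pass the count filter through the neuron libraries alone, so the counts and medians over the 46 describe them and do not support the difference. Over all 50 genes, with no filter, the CPM of both neuron libraries lay above both proliferating libraries for 33 genes and below both for 0. The same held for 13.0% and 5.78% of the 23761 genes with at least 1 count in any library. That set is wider than the 9009 tested genes, while each of the 50 genes had at least 72 counts in neuron 1. Its shares are thus not those of genes with like counts. The scale changed the outcome for some tested genes. In TMM-normalised log2 CPM, Hmmr, Nuf2 and Spc25 overlapped and Aurkb and Nek2 did not, the reverse of CPM. Overlap is given in CPM below.

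**Figure D2:**
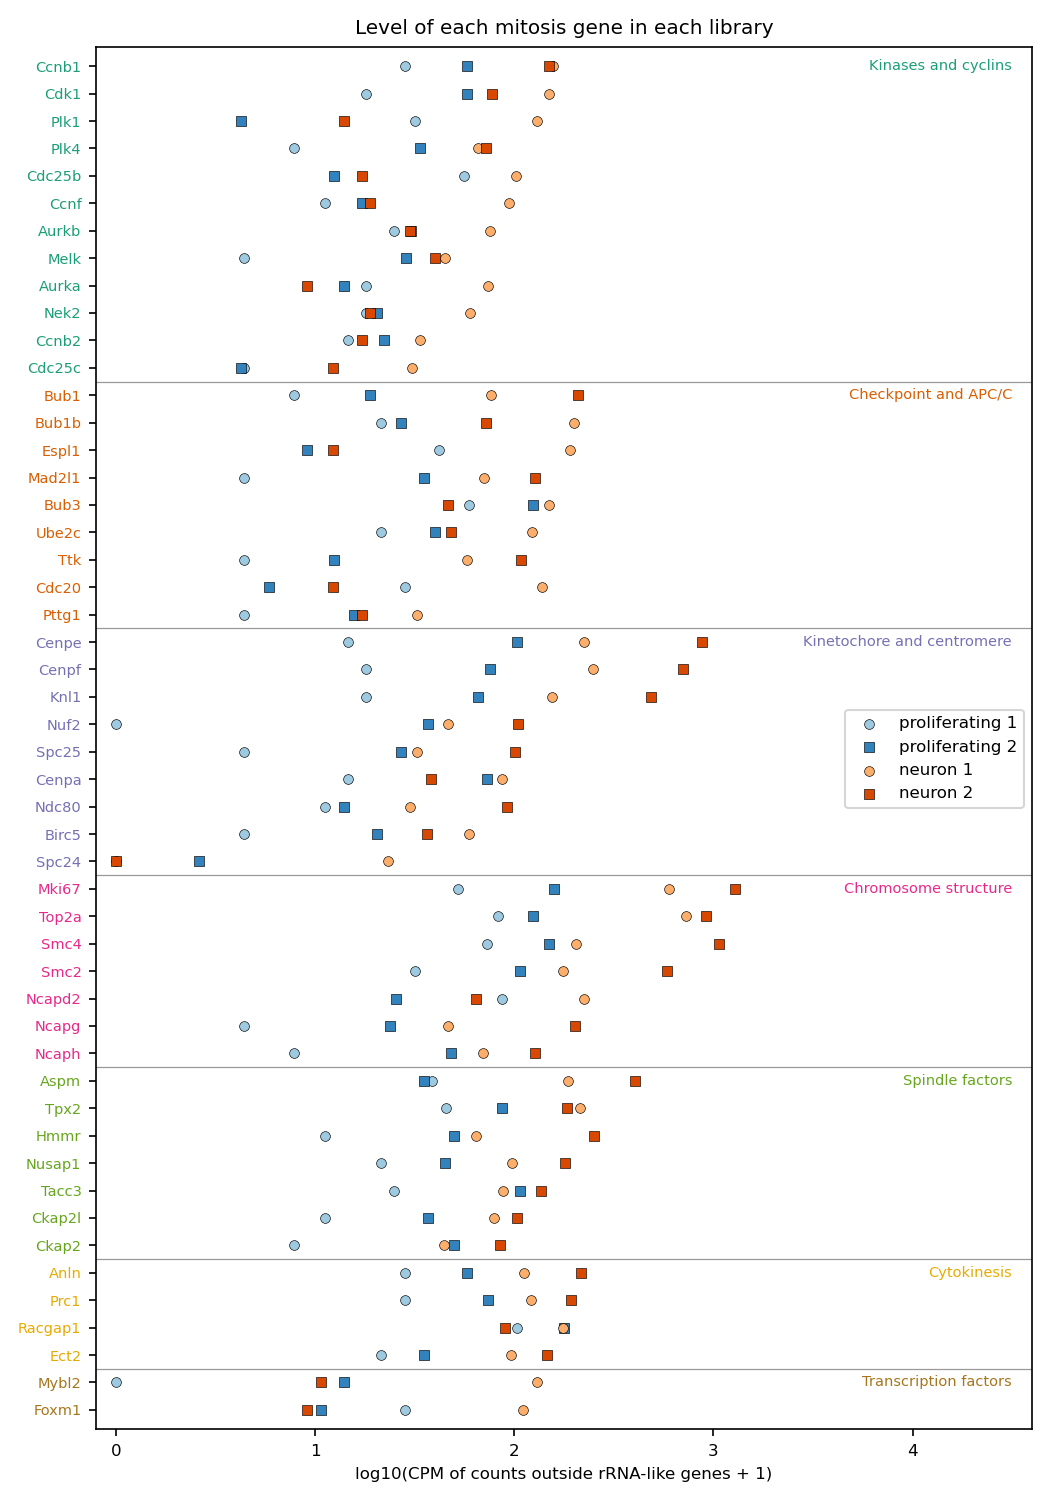
Level of each of the 50 mitosis genes in each library, as log10 of CPM of counts outside rRNA-like genes plus 1, grouped by role. Both neuron libraries (orange) lie to the right of both proliferating libraries (blue) for 33 of the 50 genes.

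The 6 promoters below belong to the called genes with the lowest adjusted p-values among those with a searched motif before the start. They are shown because mitosis genes are known to share 2 elements, the cell cycle homology region (CHR), bound by MuvB, and the CCAAT box, bound by NF-Y. Sequences are from RefSeq on GRCm38.p6 (mm10), written 5′ to 3′ on the gene's strand over the 250 bases before the start of transcription. Capitals mark CHR letters (TTTGAA or TTCGAA) and CCAAT on either strand.
Cenpe, chr3:135212313-135212562, plus strand: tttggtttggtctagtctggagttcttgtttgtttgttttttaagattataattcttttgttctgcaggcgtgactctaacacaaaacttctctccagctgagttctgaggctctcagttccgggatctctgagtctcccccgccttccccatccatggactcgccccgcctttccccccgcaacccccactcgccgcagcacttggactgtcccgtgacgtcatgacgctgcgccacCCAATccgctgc
Cenpf, chr1:189688087-189688336, minus strand: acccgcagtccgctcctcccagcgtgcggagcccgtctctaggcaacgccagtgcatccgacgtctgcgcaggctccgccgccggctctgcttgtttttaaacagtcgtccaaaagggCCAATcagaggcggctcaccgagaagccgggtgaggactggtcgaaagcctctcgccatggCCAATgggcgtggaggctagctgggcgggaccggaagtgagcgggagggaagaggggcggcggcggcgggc
Mki67, chr7:135716380-135716629, minus strand: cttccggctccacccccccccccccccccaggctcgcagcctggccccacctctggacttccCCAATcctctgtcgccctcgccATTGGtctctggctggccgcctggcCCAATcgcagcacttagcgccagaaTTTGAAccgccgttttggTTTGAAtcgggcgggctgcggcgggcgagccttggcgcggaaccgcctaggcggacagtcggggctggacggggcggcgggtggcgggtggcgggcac
Top2a, chr11:99024190-99024439, minus strand: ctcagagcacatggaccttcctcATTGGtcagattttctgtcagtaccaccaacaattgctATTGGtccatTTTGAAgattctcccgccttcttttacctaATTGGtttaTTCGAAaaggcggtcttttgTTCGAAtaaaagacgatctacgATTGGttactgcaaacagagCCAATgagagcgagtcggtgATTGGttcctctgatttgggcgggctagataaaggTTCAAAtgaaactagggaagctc
Bub1, chr2:127831860-127832109, minus strand: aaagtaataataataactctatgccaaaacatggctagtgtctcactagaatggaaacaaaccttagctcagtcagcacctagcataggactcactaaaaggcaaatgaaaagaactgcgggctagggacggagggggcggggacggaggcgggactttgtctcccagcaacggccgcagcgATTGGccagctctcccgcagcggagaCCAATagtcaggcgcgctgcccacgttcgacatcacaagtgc
Aspm, chr1:139454523-139454772, plus strand: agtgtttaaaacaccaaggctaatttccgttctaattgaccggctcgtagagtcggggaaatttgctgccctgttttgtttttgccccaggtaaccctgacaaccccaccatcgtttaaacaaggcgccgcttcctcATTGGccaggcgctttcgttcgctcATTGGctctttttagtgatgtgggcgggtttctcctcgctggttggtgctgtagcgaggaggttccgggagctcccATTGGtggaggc

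The promoter of Top2a held 4 CHR matches and 6 CCAAT boxes before the start, and that of Mki67 held 2 and 3. Those of Cenpf, Bub1 and Aspm held 2, 2 and 3 CCAAT boxes there, and each had a CHR match just after the start, at positions 3, 15 and 7. Cenpe held 1 CCAAT box and no CHR match in the window. Promoters of 300 bases, from 250 before to 50 after the start, were matched for 44 of the 50 genes, and both strands were searched. A gene with more than 1 promoter in the table, as for 3 of the 44, counted once, with a motif in any of them. TTTGAA was present in 29 of the 44 (65.9%), against 20.2% of the 27025 genes in the table and 14.0% of the 7086 tested genes in it. TTCGAA was present in 4 (9.09%), against 1.80% and 2.55%. CCAAT was present in 31 (70.5%), against 41.1% and 43.6%, and 2 or more CCAAT boxes in 21 (47.7%), against 13.3% and 17.9%. Both a CHR match and a CCAAT box were found in 28 genes (63.6%), against 8.61% and 6.93%. The E2F-type letters TTCCCGC were found in 2 (4.55%), against 5.29% and 10.7%. No match overlapped one of a different motif, and 1 pair of CCAAT boxes on opposite strands overlapped, in Ube2c. With 1 promoter per gene, 44 of 70 CCAAT boxes lay within the 100 bases before the start, while 18 of 38 TTTGAA matches lay after it. The CHR letters were present in 10 of the 12 called genes and in 21 of the 30 tested genes that were not called. A match describes the letters and is no evidence of binding.

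Chromosome structure genes had the largest summed share and 4 of the 12 calls, from 7 genes, all tested. They include Top2a (chromosome 11, 98992943 to 99024189 in mm10), the topoisomerase that untangles sister chromatids, and Mki67 (chromosome 7, 135689784 to 135716361), which coats mitotic chromosomes and is a standard marker of dividing cells. Top2a had 24 and 76 counts in the proliferating and 2357 and 568 in the neuron libraries, or 82.1, 124, 727 and 919 CPM. It rose by 3.04 on the log2 scale with library number in the model (SE 0.63, adjusted p = 0.00196 in edgeR). Both neuron libraries lay far above both proliferating ones, and Top2a was also the most abundant of the 50 genes per length, with a mean of 88.6 CPM per kilobase. Mki67 had 51.3 and 158 CPM in the proliferating and 601 and 1280 CPM in the neuron libraries (log2 fold change 3.30, SE 0.65, adjusted p = 0.00112 in edgeR).

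Among the 5 condensin genes 2 rose. Smc2 and Smc4 encode the 2 coiled-coil ATPases of condensin, and Ncapd2, Ncapg and Ncaph the other subunits of condensin I. Ncapg had 1 and 14 counts in the proliferating and 148 and 124 in the neuron libraries, and rose by 3.37 (SE 0.77, adjusted p = 0.00696 in edgeR). Smc2 had 9 and 65, then 569 and 360 counts, and rose by 2.52 (SE 0.64, adjusted p = 0.0215 in edgeR). The groups did not overlap for either gene. Smc4 had 71.8, 148, 203 and 1070 CPM in the order proliferating 1 and 2, neuron 1 and 2, so that neuron 2 stood far above the rest, and it was at 2.25 (adjusted p = 0.0545 in edgeR). Ncaph was at 2.12 and Ncapd2 at 1.39 (adjusted p = 0.131 and 0.402 in edgeR). Ncapd2 was the 1 condensin gene whose groups overlapped, with 85.5 CPM in proliferating 1 and 63.1 in neuron 2. Ncapg shares 13.4% of its exon bases with the opposite-strand gene Lcorl, which had 9, 21, 189 and 157 counts, and the strand setting of the counting was not given in the sources used here. Of the 50 genes, 15 share exon bases with another gene, at most 22.8% (Ube2c, with Tnnc2, which had 5 or fewer counts in every library). Smc2 lost its call with DESeq2 size factors (adjusted p = 0.0569 in edgeR), and Ncapg and Smc2 lost theirs after a correction for GC content, at 2.11 and 1.76 (adjusted p = 0.238 and 0.243 in edgeR).

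Kinetochore and centromere genes had 3 calls among 8 tested of 9. All 3 encode large proteins of the outer kinetochore and corona. Cenpe, the motor that carries chromosomes to the spindle equator (chromosome 3, 135212537 to 135273611), had 4 and 63 counts in the proliferating and 724 and 540 in the neuron libraries. It rose by 3.50 (SE 0.68, adjusted p = 9.00e-04 in edgeR). Cenpf, a corona protein (chromosome 1, 189640606 to 189688086), had 5 and 46, then 804 and 434 counts, and rose by 3.53 (SE 0.67, adjusted p = 9.00e-04 in edgeR). Knl1, the scaffold on which BUB1 and BUB1B assemble, had 5 and 40, then 497 and 301 counts and rose by 3.06 (SE 0.66, adjusted p = 0.00371 in edgeR). In CPM, neuron 2 was the highest library for each of the 3 and proliferating 1 the lowest. After the GC correction Knl1 was at 2.11 and lost its call (adjusted p = 0.102 in edgeR), while Cenpe and Cenpf kept theirs.

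None of the 4 genes of the NDC80 complex, which grips the microtubule end, passed the test. Ndc80, Nuf2 and Spc25 had log2 fold changes of 2.35, 2.47 and 2.36 with library number (adjusted p = 0.171, 0.106 and 0.142 in edgeR), and their groups did not overlap in CPM, though those of Nuf2 and Spc25 did after TMM normalisation. Nuf2 had 0 and 22 counts in the proliferating and 147 and 64 in the neuron libraries. Spc24, too low to be tested, had 0 and 1, then 72 and 0 counts, so it was seen almost only in neuron 1, and its 0 in neuron 2 allows up to 4.86 CPM. Cenpa, the histone H3 variant that marks centromeres, had 13.7 and 71.6 CPM in the proliferating and 85.4 and 37.2 CPM in the neuron libraries. Its groups overlapped and its log2 fold change was 0.63 (SE 0.73). Birc5, which encodes survivin of the chromosomal passenger complex, had 3.42 and 19.5, then 58.3 and 35.6 CPM, with a log2 fold change of 1.99 (adjusted p = 0.322 in edgeR).

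Among 8 tested of 9 checkpoint and anaphase genes, the 3 that rose were checkpoint genes. Bub1, a kinase that marks centromeres and recruits other checkpoint proteins (chromosome 2, 127801122 to 127831865), had 2 and 11 counts in the proliferating and 244 and 128 in the neuron libraries. It rose by 3.58 (SE 0.75, adjusted p = 0.00222 in edgeR), the largest value among the tested mitosis genes in this fit. Ttk, the kinase that starts checkpoint signalling, had 1 and 7, then 184 and 66 counts and rose by 3.54 (SE 0.84, adjusted p = 0.0106 in edgeR). Mad2l1, whose protein binds and holds CDC20, had 1 and 21, then 226 and 78 counts and rose by 2.64 (SE 0.73, adjusted p = 0.0445 in edgeR). The groups did not overlap for these 3 genes. The call of Mad2l1 ended with DESeq2 size factors (adjusted p = 0.112 in edgeR), with library totals alone (0.0958) and after the GC correction, where it was at 1.85 (0.334).

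The other checkpoint and anaphase genes gave a wide range. Bub1b, the BUBR1 pseudokinase, had 6 and 16, then 643 and 44 counts and was at 2.32 (adjusted p = 0.0655 in edgeR). With the GC correction it was at 2.56 and passed (adjusted p = 0.0260 in edgeR). Bub3, the small WD-repeat partner of BUB1 and BUB1B, had 58.2 and 124 CPM in the proliferating and 149 and 45.3 CPM in the neuron libraries, and was at -0.04 (SE 0.65). It was among the 5 most abundant of the 50 genes per length, at 43.1 CPM per kilobase. The APC/C activator Cdc20 had 27.4 and 4.88, then 136 and 11.3 CPM, and the separase gene Espl1 had 41.1 and 8.14, then 189 and 11.3 CPM. For both, each neuron library was higher than the proliferating library of its number, but the groups overlapped. Ube2c, the ubiquitin-conjugating enzyme of the APC/C, had 20.5 and 39.1, then 122 and 46.9 CPM and a log2 fold change of 1.36 (SE 0.70). Pttg1, which encodes securin and was not tested, had 1 and 9, then 102 and 10 counts.

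None of the 11 tested kinase and cyclin genes passed. They had log2 fold changes from 0.42 to 2.00 with library number and a median of 1.56. Ccnb1, the main mitotic cyclin, had 8 and 35 counts in the proliferating and 504 and 92 in the neuron libraries, or 27.4, 57.0, 155 and 149 CPM. Its groups did not overlap, and it was at 1.92 (SE 0.63, adjusted p = 0.132 in edgeR). Its partner Cdk1 had 17.1, 57.0, 148 and 76.1 CPM and was at 1.61 (adjusted p = 0.343 in edgeR). Ccnb2, the other B-type cyclin, had 13.7 and 21.2 CPM in the proliferating and 32.7 and 16.2 CPM in the neuron libraries and was at 0.42 (SE 0.82), with overlapping groups.

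The Polo and Aurora kinases also lay below the called genes. Plk1, which acts from entry into mitosis to cytokinesis, had 9 and 2 counts in the proliferating and 421 and 8 in the neuron libraries, with a log2 fold change of 2.00 (adjusted p = 0.313 in edgeR). Plk4, which controls centriole copying, had 2 and 20, then 211 and 44 counts and a value of 1.95 (adjusted p = 0.259 in edgeR). Aurka, a spindle pole kinase, had 5 and 8, then 236 and 5 counts and a value of 0.86 (SE 0.83), and Aurkb, the kinase of the passenger complex, 7 and 18, then 243 and 18 counts and 0.82 (SE 0.72). In CPM, Aurka was lowest in neuron 2, and Aurkb was nearly equal in proliferating 2 and neuron 2, at 29.3 and 29.1. The phosphatase gene Cdc25b, which activates CDK1, was at 0.72 and the centrosomal kinase gene Nek2 at 0.84. Melk and the cyclin F gene Ccnf were at 1.56 and 1.58, each with groups that did not overlap. Melk had 1 and 17, then 142 and 24 counts, and Ccnf 3 and 10, then 301 and 11. The separation of Ccnf was narrow, at 16.3 CPM in proliferating 2 and 17.8 in neuron 2. Cdc25c, not tested, had 1 and 2, then 96 and 7 counts.

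Of the 7 spindle factors 2 rose. Aspm, which focuses spindle poles and is a microcephaly gene (chromosome 1, 139454772 to 139494091), had 11 and 21 counts in the proliferating and 598 and 248 in the neuron libraries, or 37.6, 34.2, 184 and 401 CPM. It rose by 2.997 (SE 0.67, adjusted p = 0.00466 in edgeR). Hmmr, a microtubule-binding partner of TPX2, had 3 and 30, then 206 and 154 counts and rose by 2.51 (SE 0.68, adjusted p = 0.0409 in edgeR). Hmmr lost its call with DESeq2 size factors (adjusted p = 0.0950 in edgeR), with library totals alone (0.0839) and after the GC correction, at 1.90 (0.243). Tpx2, which activates Aurora A, had 13 and 53, then 690 and 113 counts and was at 1.66 (adjusted p = 0.221 in edgeR). Nusap1, Ckap2l and Ckap2, which bind spindle microtubules, were at 2.15, 2.10 and 1.49, and the spindle pole gene Tacc3 at 1.05. The groups overlapped for Ckap2 and Tacc3 and for no other spindle factor in CPM, while those of Hmmr overlapped after TMM normalisation.

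The 4 cytokinesis genes had no call. Anln, which encodes anillin of the cleavage furrow, Prc1, which bundles midzone microtubules, and Ect2, the RHOA exchange factor, were at 2.00, 1.75 and 2.18 with library number (adjusted p = 0.106, 0.197 and 0.0865 in edgeR). Anln had 8 and 35, then 360 and 133 counts, and Prc1 8 and 45, then 390 and 118. For all 3 the neuron libraries lay above the proliferating ones. Racgap1, which works with ECT2 in the same pathway, had 103 and 177 CPM in the proliferating and 176 and 89.0 CPM in the neuron libraries, with a log2 fold change of -0.10 (SE 0.60). Prc1 shares 11.1% of its exon bases with Rccd1 on the opposite strand, which had 69 or fewer counts in every library.

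The transcription factors of the program were high in neuron 1 alone. Foxm1, which drives G2 and M genes, had 8 and 6 counts in the proliferating and 357 and 5 in the neuron libraries, or 27.4, 9.76, 110 and 8.09 CPM. Its log2 fold change was 1.10 (SE 0.80). Mybl2, which encodes B-MYB and was not tested, had 0 and 8, then 420 and 6 counts. The neuron 2 value lay below that of proliferating 2 for both genes.

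**Figure D3:**
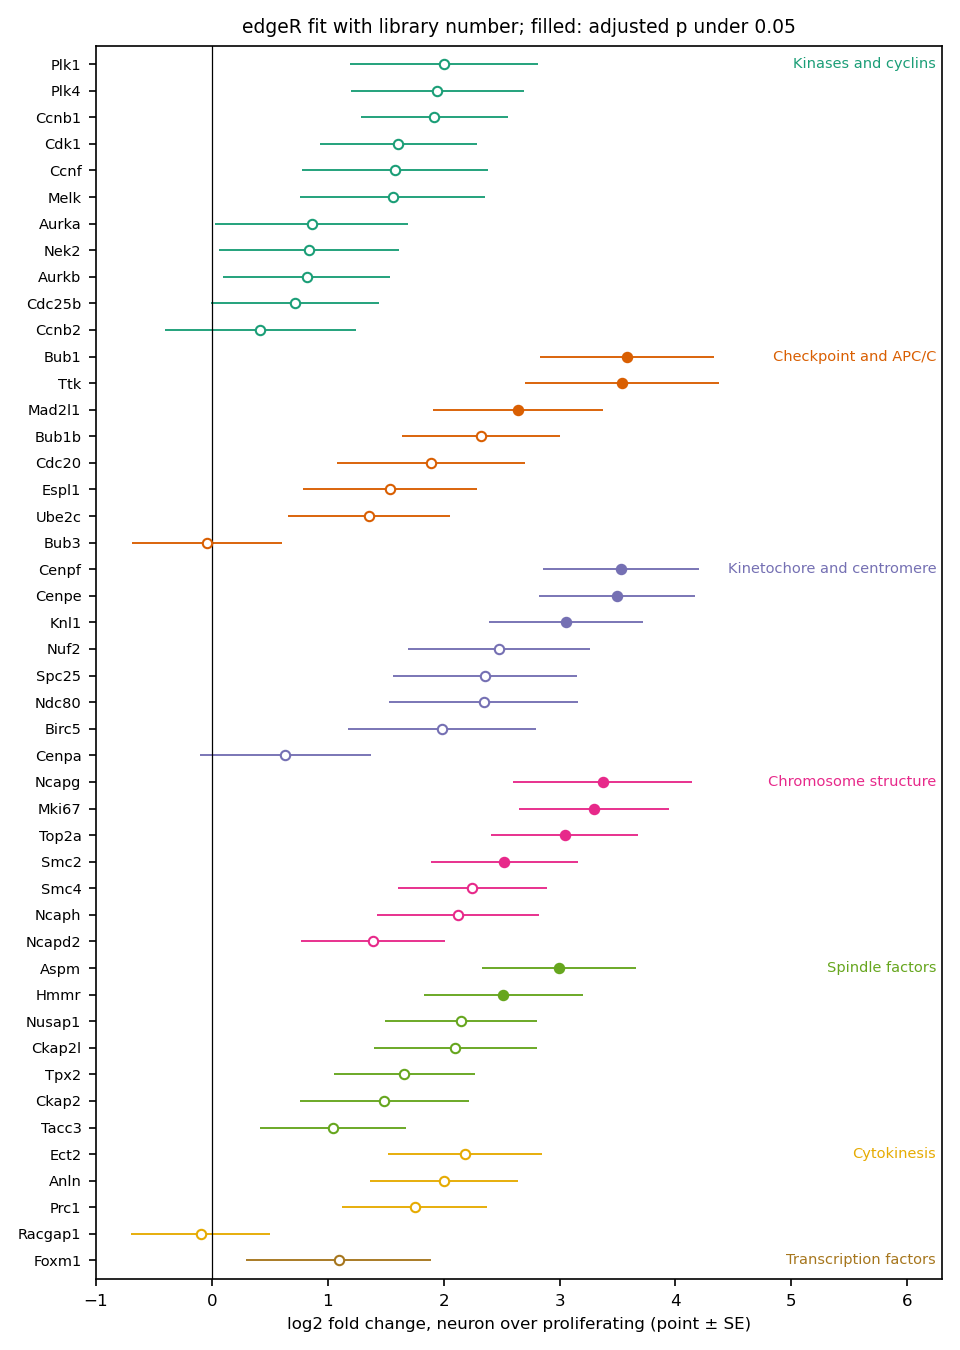
Log2 fold change with its SE for each of the 46 tested mitosis genes, from edgeR with library number as a term, by role (2 libraries per group). The 12 filled points passed an adjusted p of 0.05, and Bub3 and Racgap1 lie just below 0.

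Within the libraries numbered 1, every one of the 50 genes had a higher CPM in the neuron library, and within those numbered 2, 40 of 50 did. The same held for 61.8% and 34.4% of all 23761 genes with at least 1 count in any library. A gene at 0 in both libraries of a number was counted there as not higher, which lowers these shares. Log2 ratios were centred so that the median over the 9009 genes was 0. The 46 tested genes had a median of 2.27 in number 1 (range 0.59 to 4.66) and 1.59 in number 2 (range -1.21 to 3.71). A ratio above 1 was reached by 43 of 46 in number 1 and 30 of 46 in number 2, against 13.4% and 21.4% of all tested genes. It was above 0 in both numbers for 40 of 46 and above 1 in both for 30, against 27.4% and 4.97% of all tested genes. The medians of the role groups spanned a wider range in number 2. Their medians in number 2 were 3.05 for chromosome structure, 2.49 for kinetochore, 1.84 for cytokinesis, 1.68 for spindle factors, 1.41 for checkpoint and anaphase genes and 0.62 for kinases and cyclins. In number 1 these medians were 2.89, 3.13, 1.84, 2.07, 2.66 and 1.85 in the same order. With 1 library per group in each number, the difference between the numbers was not tested.

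In number 2 the ratio was below 0 for 6 of the 46, and all 6 were above 0 in number 1. Bub3 was at 1.16 in number 1 and -1.21 in number 2, Racgap1 at 0.59 and -0.78, and Cenpa at 2.34 and -0.71. Aurka was at 1.82 and -0.42, Ccnb2 at 1.00 and -0.16, and Foxm1 at 1.77 and -0.05. None of these 6 was called in either fit. Across the 46 genes the Spearman correlation of the ratios in number 1 and number 2 was 0.49, against 0.18 across all 9009 tested genes, a description over genes of the same 4 libraries.

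**Figure D4:**
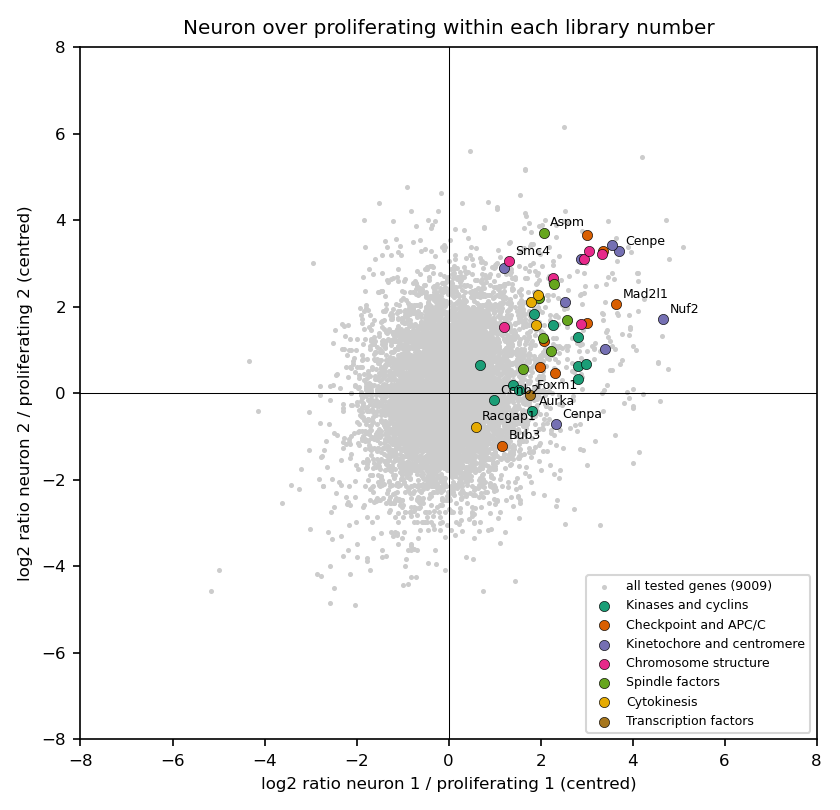
Centred log2 ratio of the neuron over the proliferating library within number 1 (x axis) and within number 2 (y axis), for all 9009 tested genes (grey) and the 46 tested mitosis genes (coloured by role). The mitosis genes all lie right of 0, and 6 lie below 0 on the y axis.

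The ratios of the mitosis genes moved with the base composition of their transcripts, more so in number 2, and the part of base composition in the calls was not tested beyond the correction given here. Across the 46 genes the Spearman correlation of GC content with the ratio was -0.67 in number 2 and -0.39 in number 1 (Pearson -0.63 and -0.39). Across all tested genes with a GC value it was -0.43 and -0.30 (Pearson -0.41 and -0.29). The points share the same 4 libraries. The mitosis genes had a median GC content of 45.9%, against 48.8% for all tested genes, and the 12 called genes lay between 34.8% and 46.6%. The 34 tested genes that were not called had a median of 47.8%. The 23 genes with the lower GC contents had median ratios of 2.54 in number 1 and 2.53 in number 2. The other 23, from 46.0% to 56.1% GC, had 1.99 and 0.61, and 17 of them were above 0 in number 2. All tested genes within the same GC range as these had medians of -0.09 and -0.32, and those within the range of the lower-GC genes had 0.30 and 0.67. After a GC correction in each library, the medians of the 46 genes were 2.19 and 1.32, and 46 and 43 of them were above 0. Bub3, Racgap1 and Cenpa were then the 3 below 0 in number 2. With that correction and library number in the model, edgeR called 8 of the 46 higher, 7 from the 12, and 0 lower. Over all tested genes it called 35 higher and 22 lower. Transcript length also moved with the ratio in number 2, with a Spearman correlation of 0.48 across the 46 genes and 0.32 across all tested genes. In number 1 these correlations were 0.15 and -0.12. With a correction for length and library number in the model, 23 of the 46 were called higher, including all 12, and 0 lower. Calls over all tested genes also increased, to 113 higher and 72 lower, from 58 and 29 without a correction.

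**Figure D5:**
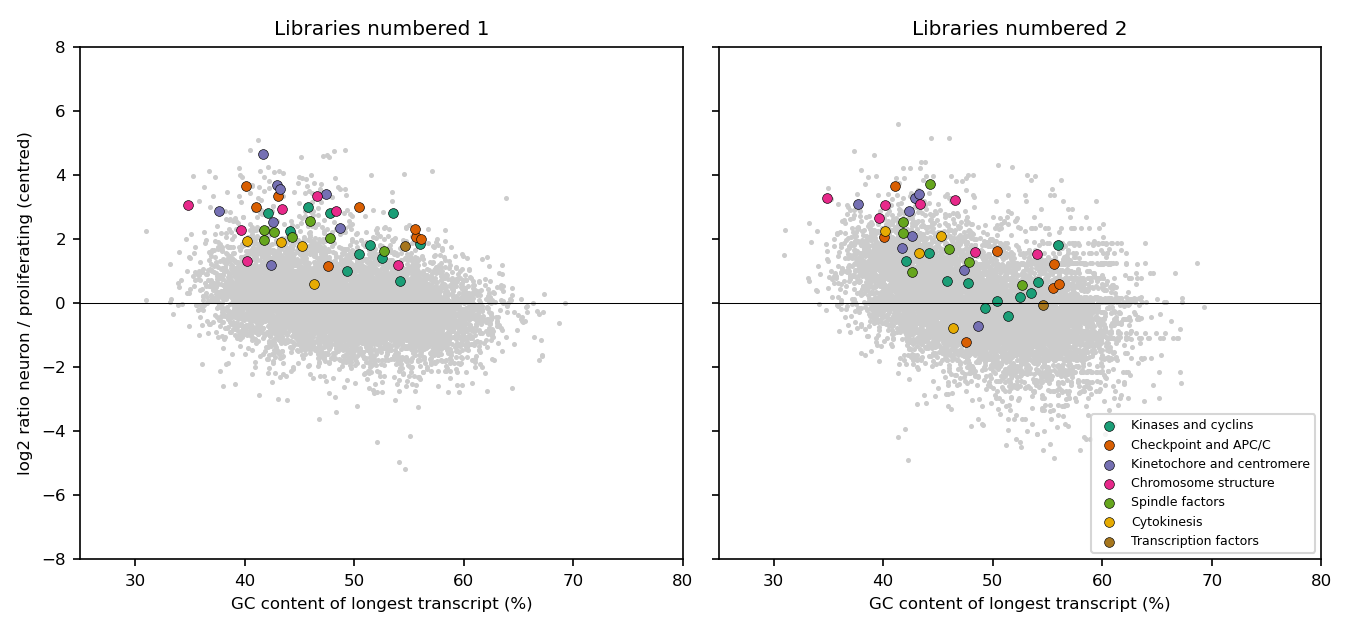
Centred log2 ratio of the neuron over the proliferating library against the GC content of the longest transcript, in the libraries numbered 1 (left) and 2 (right), for all tested genes (grey) and mitosis genes (coloured by role). The mitosis genes lie above the bulk of genes of like GC content in number 1, and in number 2 their median ratio was 2.53 for the lower-GC and 0.61 for the higher-GC genes.

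Of 64 other genes of the same machinery, 54 were tested, and with library number 4 rose and 0 fell, where 0.644% and 0.322% of all tested genes did. They included Sgo2a, a shugoshin that protects centromeric cohesion (log2 fold change 3.59, SE 0.79, adjusted p = 0.00463 in edgeR), and Kntc1, a checkpoint gene of the ROD complex (2.77, adjusted p = 0.0410). They also included the condensin II gene Ncapg2 (2.62, adjusted p = 0.0372 in edgeR). Sgo2a had 0 and 14 counts in the proliferating and 161 and 110 in the neuron libraries, with no overlap between groups. With group alone 0 of the 54 were called. Their median log2 fold change was 1.03 with library number, below the 2.00 of the mitosis genes and above the -0.03 of all genes, a comparison that was not tested. The median ratio was 1.06 in number 1 and 0.79 in number 2, and 37 of 54 were above 0 in both, against 27.4% of all tested genes. Among the 64 were 11 core subunits of the APC/C, singled out after their values were seen. These 11 lay between -0.56 and 0.81 with a median of -0.04, and 0 were called.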

How the data were processed

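RNA of iMOP cells was measured in 4 libraries, 2 per group. Per the labels' protocols, DNase-treated total RNA was depleted of ribosomal RNA and made into stranded libraries. The submitters' processing notes name HISAT2, SAMtools, featureCounts, DESeq2 and mm10. Versions, annotation and strand setting are not given in the sources used here. The authors deposited raw counts per gene and RPKM values. Counts, RPKM and library totals gave 1 gene length per gene (tolerance 0.001) for 17709 of 17709 genes.

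The 7 genes set aside were mt-Rnr1, mt-Rnr2, Rn18s-rs5, AY036118, Gm15564, Lars2 and Mir6236, taken from earlier results of these data. The name rRNA-like stands for this set and not for the type of each gene. Counts were tested with edgeR 4.0.16 (quasi-likelihood, TMM, filterByExpr) in R 4.3.3, with Benjamini-Hochberg adjusted p-values over 9009 genes and a threshold of 0.05. The SE is the log2 fold change over the root of F. Residual degrees of freedom were 2 with group alone and 1 with library number. Log2 CPM used a prior count of 2. Both fits were tested on counts simulated from these libraries. The spread of each simulated gene followed the trend with mean count, without differences of its own. Changed genes were drawn from those with higher mean counts, so the rates do not cover the lowest genes. With library number, 1 of 47 genes changed 2-fold, 7 of 46 changed 4-fold, 36 of 47 changed 8-fold and 45 of 46 changed 16-fold were called, and 5 of 8240 unchanged genes (8426 tested). With group alone, 3 of 46 changed 16-fold, none of those changed less and 1 of 7436 unchanged genes were called (7614 tested). Alternatives were other scalings, filters, tools, pseudocounts, GC and length corrections and left-out libraries. limma 3.58.1 and DESeq2 1.42.0 were used only there. Mitosis genes, role groups and lists were chosen with earlier results of these data known. Counts per library were given for called genes, the 2 most abundant of each role group, genes below 0 in 1 number and others that fill out a group, the last chosen after their values were seen. The values of 1 called gene outside the 50 are not reported here. Positions and GC content came from GENCODE M21 (mm10), with a GC value for 96.1% of tested genes. The GC and length corrections subtracted, per library, a spline with 5 degrees of freedom. Intervals and limits for 0 (3 counts) cover counting error alone.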

Additional observations from a re-analysis of the deposited data

How the results depend on the processing

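With group alone, 0 mitosis genes were called under every scaling, filter, tool, RPKM scale and left-out library run, which says nothing of stability in so small a design. The labels do not say that a number marks a shared culture. Deviations from the group means had a correlation of 0.74 between same-numbered libraries, across all tested genes and across the mitosis genes. The replicate block moved the calls from 0 to 12 mitosis genes higher and from 0 to 58 higher and 29 lower over all genes. Leaving out 1 library from that model leaves no residual degrees of freedom, so it was not run.

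With the block, all genes called higher and lower were 23 and 9 with DESeq2 size factors (9 mitosis genes), 36 and 19 with library totals alone (10 mitosis genes), 35 and 22 after the GC correction, and 113 and 72 after the length correction (23 mitosis genes). On log2(RPKM + 0.1) limma called 666 and 9, with 35 mitosis genes at a median of 2.74, on a scale where the median of all genes was 0.81. With the block DESeq2 called 42 higher and 31 lower over all genes, with 11 mitosis genes higher, 10 of them among the 12. DESeq2 gave no adjusted p for Mad2l1 and Ttk, and added Smc4 (2.22, adjusted p = 0.0102). Aspm, Bub1, Cenpe, Cenpf, Mki67 and Top2a were called under all 8 settings with the block.

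With group alone the median of the tested mitosis genes was 2.74 on log2(RPKM + 0.1) and 1.41 on log2(RPKM + 1), and 1.45 to 2.87 with 1 library left out, lowest without neuron 2 and highest without proliferating 2. The 4.57-fold summed share was 9.67-fold over all counts, and 3.42- to 6.89-fold with 1 library left out. Some uncalled genes changed sign, and none was called under that setting. With group alone Bub3 was at 0.098 with library totals alone, 0.026 without a count filter, 0.032 with rRNA-like genes kept, 1.08 on log2(RPKM + 0.1) and 0.84 on log2(RPKM + 1), where Racgap1 was at 1.01 and 0.76. With the block Bub3 was at 1.08 and Racgap1 at 1.01 on log2(RPKM + 0.1), and Bub3 at 0.083 after the length correction. With 1 library left out the values ran from -0.79 to 0.79 for Bub3, -0.57 to 0.48 for Racgap1, -0.38 to 2.25 for Cenpa, -0.70 to 2.11 for Cdc25b, -0.018 to 4.16 for Plk1, -0.62 to 2.01 for Aurka, -0.15 to 3.62 for Cdc20, -0.77 to 3.32 for Espl1 and -0.86 to 2.39 for Foxm1. The lowest values came without neuron 1, except those of Cenpa and Racgap1, which came without proliferating 1. The cause of these changes was not tested.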
